A study of Mus musculus with 12 samples.

Results

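The expression of superoxide dismutases, catalase and peroxiredoxins was described in the hippocampus of naturally aged mice. The 10 genes Sod1, Sod2, Sod3, Cat and Prdx1 to Prdx6 were chosen by name from the 27833 genes of the expression table. Hippocampal RNA was sequenced from 12 wild-type (WT) male C57BL/6J mice aged 20 months. All mice received 0.2 mL of saline by oral gavage for 14 days, either alone (CON, n = 3) or with pyrroloquinoline quinone (PQQ), a redox-active quinone cofactor of bacterial enzymes, at 5 mg/kg/day (PQQ-L, n = 5) or 10 mg/kg/day (PQQ-H, n = 4). No young mice were measured, so every comparison is between aged mice. All 10 genes passed the filter on low values (a mean FPKM of at least 0.5), as did 13796 genes in all. FPKM, a level of fragments mapped to a gene, is corrected for gene length and library size, so it can be compared between genes.

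These enzymes work in sequence. Superoxide dismutases turn superoxide, a by-product of respiration and of oxidases, into hydrogen peroxide, and catalase and the peroxiredoxins turn hydrogen peroxide into water. They are divided by place: Sod1 is the copper-zinc enzyme of the cytosol, Sod2 the manganese enzyme of the mitochondrial matrix and Sod3 the secreted copper-zinc enzyme. Catalase sits in peroxisomes. Prdx1 and Prdx2 are cytosolic, Prdx3 mitochondrial, Prdx4 resident in the endoplasmic reticulum and secreted, Prdx5 spread over mitochondria, peroxisomes and cytosol, and Prdx6 cytosolic with a phospholipase activity besides its peroxidase activity. Most peroxiredoxins are reduced by thioredoxin, which is reduced in turn by thioredoxin reductase. In brain, Prdx2 is known mainly as a neuronal form, Prdx1 as a form of oligodendrocytes and microglia, and Prdx6 as an astrocytic form.

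Promoter sequences in RefSeq (GRCm38.p6) were found for 8 of the 10 genes, and the other two, Sod3 and Prdx6, are named only. The 250 bases before the annotated start are printed for Sod1 and Prdx1, whose levels divided the libraries in the same way, and for Sod2, whose levels did not. Capitals mark the core of the antioxidant response element (TGACNNNGC), which is bound by the factor Nrf2, the TATA box (TATAAA), the GC box (GGGCGG) and the CCAAT box (CCAAT), each searched on both strands.
Sod1 promoter, GRCm38.p6 chr16:90220512-90220761, plus strand: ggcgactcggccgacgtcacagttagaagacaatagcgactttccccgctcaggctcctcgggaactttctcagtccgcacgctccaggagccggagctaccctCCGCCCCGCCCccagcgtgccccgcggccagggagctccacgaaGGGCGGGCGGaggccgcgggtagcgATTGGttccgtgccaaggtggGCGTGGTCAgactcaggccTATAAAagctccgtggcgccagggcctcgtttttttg
Prdx1 promoter, GRCm38.p6 chr4:116685349-116685598, plus strand: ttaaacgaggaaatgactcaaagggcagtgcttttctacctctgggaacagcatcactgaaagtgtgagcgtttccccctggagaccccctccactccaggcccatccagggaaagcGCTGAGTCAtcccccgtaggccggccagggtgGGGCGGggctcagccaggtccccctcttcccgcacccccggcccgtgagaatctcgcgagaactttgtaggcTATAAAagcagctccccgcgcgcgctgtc
Sod2 promoter, GRCm38.p6 chr17:13007589-13007838, plus strand: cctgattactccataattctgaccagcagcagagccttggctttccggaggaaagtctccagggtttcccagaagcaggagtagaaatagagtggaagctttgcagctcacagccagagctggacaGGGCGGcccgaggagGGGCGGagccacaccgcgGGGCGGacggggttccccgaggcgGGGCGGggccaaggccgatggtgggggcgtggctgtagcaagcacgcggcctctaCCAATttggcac

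The antioxidant response core was present in 2 of the 8 promoters, Sod1 and Prdx1, both times on the minus strand. In Sod1 it read TGACCACGC and lay 56 to 48 bases before the start, and in Prdx1 it read TGACTCAGC and lay 133 to 125 bases before the start. Of 32851 RefSeq promoters of this length, 10.2% held the core. The TATA box was found in Sod1, Prdx1 and Prdx3, against 12.4% of all promoters. The GC box was found in 7 of the 8, Prdx2 being the exception, against 32.7%, and the CCAAT box in Sod1, Sod2, Cat and Prdx4, against 33.8%. In Sod1 the 4 GC boxes formed 2 overlapping pairs. No match of one motif overlapped a match of another in the 3 sequences printed. A match is a string of letters in the window and not a measured site. The 3 sequences printed were picked by the levels of their genes. Whether any motif goes with these levels was not tested.

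The libraries held 29654553 to 38179496 reads on genes, as recovered from the FPKM values. Prdx4, the gene of the 10 with the fewest reads, had at least 239 in each library. Markers of the labelled tissue were present everywhere, but 4 libraries stood apart. In the controls CON 1 and CON 3 and the high-dose libraries PQQ-H 1 and PQQ-H 2, the FPKM of 11 striatal neuron markers summed to 1402 to 3497, against 49.4 to 208 in the other 8 libraries. The same 4 libraries were lower for 12 hippocampal neuron markers (71.4 to 156 against 227 to 468) and higher for 10 oligodendrocyte markers (1967 to 3048 against 1066 to 1853) and for the 9 microglial markers in the table (340 to 442 against 239 to 298). Summed choroid plexus markers were 1552 to 5459 in the CON libraries, 50.5 to 124 in PQQ-L and 21.6 to 35.3 in PQQ-H. Ependymal markers summed to 31.5 to 53.5, 14.8 to 36.4 and 5.70 to 17.9, and meningeal fibroblast markers to 25.5 to 60.8, 17.1 to 51.1 and 12.6 to 16.7, in the same order of groups. The 8 thalamic neuron markers summed to 30.2 to 141 in CON, 25.0 to 108 in PQQ-L and 18.2 to 43.3 in PQQ-H. None of the marker genes was at 0 throughout a PQQ group. In bulk RNA, fewer cells of a type and less RNA per cell cannot be told apart, and the choroid plexus signal cannot be told apart from the treatment because all 3 CON libraries carried it.

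**Figure D1:**
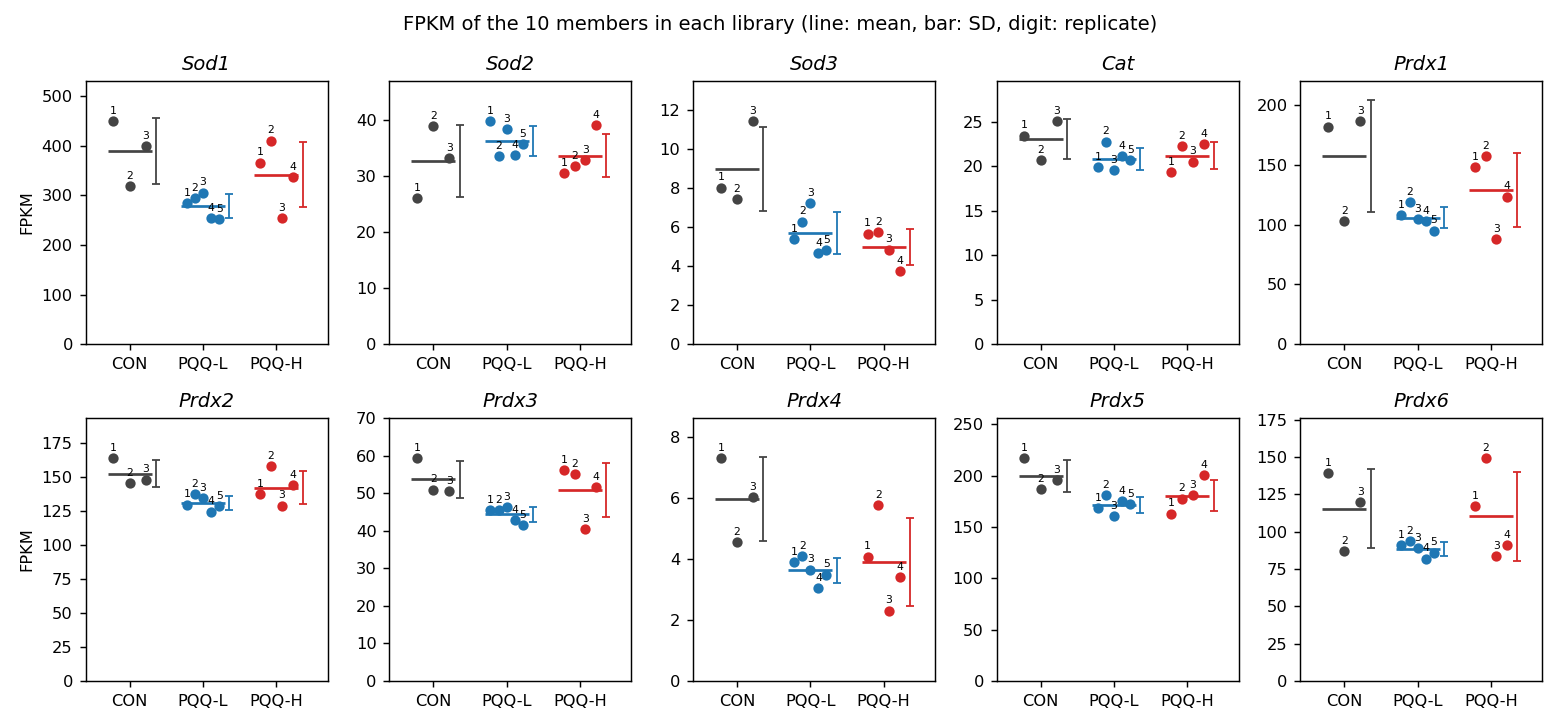
FPKM of each of the 10 genes in the 12 libraries (vertical axes start at 0 and differ between panels), with points for single libraries numbered by replicate, a line for the group mean and a bar for the SD. Sod3 in all 4 PQQ-H libraries lay between 3.75 and 5.74, below the CON libraries at 7.45 to 11.4, while Sod2 and Cat overlapped between all groups.

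Sod1 was the most abundant of the 10 genes, with a mean over the 12 libraries of 327 FPKM, a level above that of 99.08% of the genes tested. It was followed by Prdx5 (182), Prdx2 (139.9), Prdx1 (126), Prdx6 (102), Prdx3 (48.9), Sod2 (34.5), Cat (21.5), Sod3 (6.28) and Prdx4 (4.30). Each gene exceeded the next one in this order in 12 of 12 libraries, except that Prdx2 exceeded Prdx1 in 9 and Sod3 exceeded Prdx4 in 11. Prdx2 and Prdx1 are thus neighbours whose order was not the same in every library. Sod3 and Prdx4, the secreted and the endoplasmic reticulum form, lay near the middle of the genes tested, with 50.06% and 39.99% of them below.

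Sod1 made up most of the superoxide dismutase signal in every group. In CON it made up 90.0% ± 2.84 (SD, n = 3) of the summed FPKM of the 3 dismutases. After the lower dose the share was 86.9% ± 0.756 (SD, n = 5), and after the higher dose 89.6% ± 2.11 (SD, n = 4). The share of mitochondrial Sod2 was 7.86% ± 2.67 in CON, 11.4% ± 0.886 in PQQ-L and 9.08% ± 2.04 in PQQ-H, and that of secreted Sod3 was 2.09% ± 0.461, 1.76% ± 0.199 and 1.33% ± 0.280. Among peroxiredoxins no form reached such a share. Prdx5 took 29.4% ± 2.56 of the peroxiredoxin sum in CON, 31.5% ± 1.37 in PQQ-L and 29.6% ± 4.64 in PQQ-H, and Prdx1, Prdx2 and Prdx6 each took 16.2% to 24.0% as group means. Prdx4 took under 1%, with 0.863% ± 0.0827, 0.665% ± 0.0570 and 0.616% ± 0.160.

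The comparison PQQ-L vs. CON asks whether these enzymes differed in mRNA level after the lower dose. In PQQ-L, 9 of the 10 genes had a lower mean than in CON, Sod2 being the one above, where 53.9% of all genes tested had a log2FC below 0. The log2FC of the 10 ran from -0.68 for Prdx4 to 0.16 for Sod2. No gene passed an adjusted p of 0.05 in limma, with or without a |log2FC| above 1, where 0.471% of all genes tested passed both thresholds and 0.587% passed the adjusted p alone. At an unadjusted p below 0.05, 7 of the 10 genes were lower and 0 higher, against 11.6% and 8.92% of all genes. The 7 were Sod1, Sod3, Prdx1, Prdx2, Prdx3, Prdx4 and Prdx5. The median log2FC of the 10 genes was -0.32, beside -0.03 over all genes. The smallest adjusted p in limma was 0.183, for Sod3.

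Among the dismutases, Sod1 had 449.7, 318 and 399 FPKM in CON 1 to 3 and 285, 294, 306, 254 and 252 in PQQ-L 1 to 5. Every PQQ-L library was below every CON library, the gap being narrow between CON 2 and PQQ-L 3. The limma log2FC was -0.47 (SE 0.154, 95% interval -0.81 to -0.14), with an adjusted p of 0.205. Sod3 stood at 8.03, 7.45 and 11.4 FPKM in CON and at 5.40, 6.29, 7.23, 4.66 and 4.83 in PQQ-L. Again the groups did not overlap, and CON 3 was the highest library. Its log2FC was -0.64 (SE 0.192, 95% interval -1.06 to -0.22). Sod2 had 26.1, 39.0 and 33.2 FPKM in CON and 39.8, 33.6, 38.3, 33.8 and 35.8 in PQQ-L, so that CON 1 alone lay low and the groups overlapped, with a log2FC of 0.16 (95% interval -0.11 to 0.44). Cat, the peroxisomal enzyme, had the smallest ratio of highest to lowest library, with 20.7 to 25.1 FPKM in CON and 19.5 to 22.8 in PQQ-L and a log2FC of -0.14 (95% interval -0.33 to 0.04).

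Of the cytosolic peroxiredoxins, Prdx1 had 182, 103 and 186 FPKM in CON and 108, 119, 104, 103 and 94.97 in PQQ-L. CON 2 lay among the PQQ-L libraries and far from the other two CON libraries. The log2FC was -0.52 (SE 0.215, 95% interval -0.996 to -0.05), with CON 1 and CON 3 alone above the PQQ-L range. Prdx6 divided the CON libraries in the same way, with 139, 87.2 and 119.8 FPKM in CON and 82.0 to 93.8 in PQQ-L, and its log2FC was -0.36 (95% interval -0.77 to 0.05). Prdx2, by contrast, lay close together within each group, at 145 to 164 FPKM in CON and 124 to 137 in PQQ-L, with no overlap and a log2FC of -0.22 (SE 0.0766, 95% interval -0.39 to -0.05).

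The organellar peroxiredoxins did not overlap between CON and PQQ-L either. Prdx4 had 7.31, 4.54 and 6.03 FPKM in CON and 3.89, 4.10, 3.65, 3.03 and 3.48 in PQQ-L, a log2FC of -0.68 (SE 0.244, 95% interval -1.22 to -0.15). Mitochondrial Prdx3 spanned 50.7 to 59.5 FPKM in CON and 41.6 to 46.3 in PQQ-L (log2FC -0.27, SE 0.105). Prdx5 spanned 187 to 217 FPKM in CON and 160.4 to 181 in PQQ-L (log2FC -0.22, SE 0.0803). In all, 6 of the 10 genes (Sod1, Sod3, Prdx2, Prdx3, Prdx4 and Prdx5) lay without overlap below CON, against 7.66% of all genes tested, and none above it, against 2.96%. For 8 of the 10 genes the 95% interval of the log2FC stayed within a 2-fold change in either direction, and for Sod3 and Prdx4 it reached past a 2-fold lower level.

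**Figure D2:**
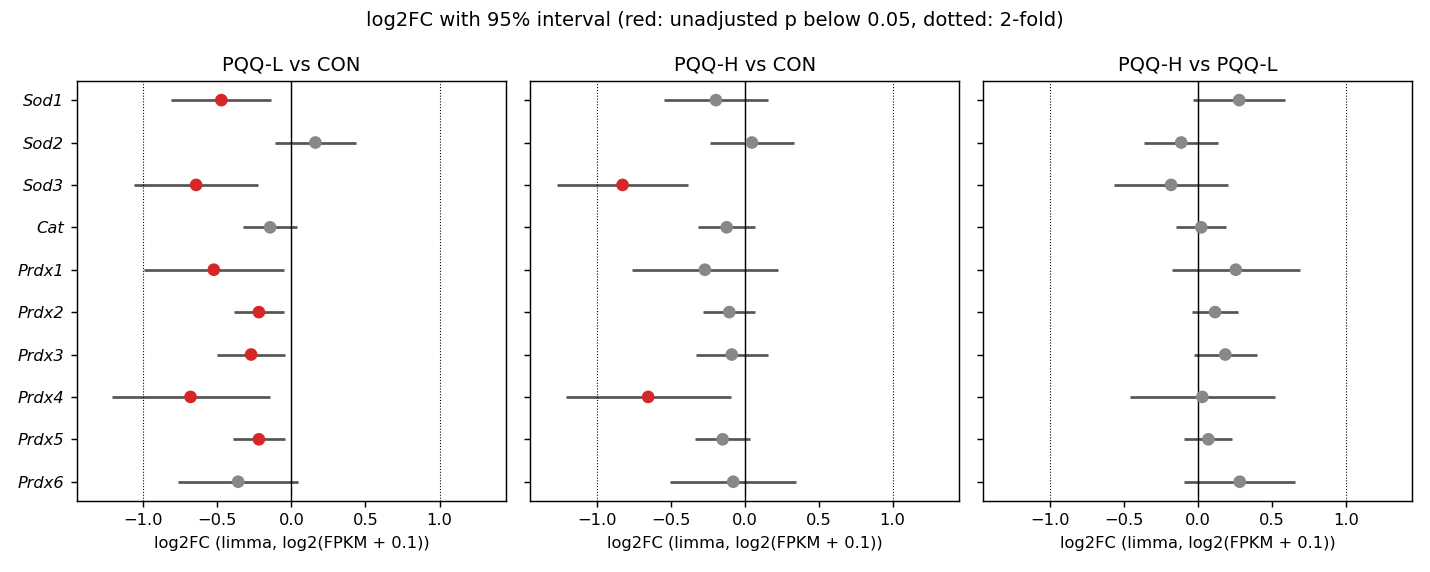
log2FC from limma (horizontal axis, log2 scale of FPKM + 0.1) with its 95% interval for each gene in the 3 comparisons, red points having an unadjusted p below 0.05 and dotted lines marking a 2-fold change. 7 points are red in PQQ-L vs. CON, 2 in PQQ-H vs. CON and 0 in PQQ-H vs. PQQ-L, and no gene passed an adjusted p of 0.05.

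The comparison PQQ-H vs. CON used the same 3 control libraries, so its values are not independent of those of the lower dose. Here 9 of the 10 genes again had a log2FC below 0, beside 55.6% of all genes tested, but only Sod3 and Prdx4 had an unadjusted p below 0.05, both lower, against 7.88% of all genes lower and 1.85% higher. No gene passed an adjusted p of 0.05, where 0.819% of all genes passed both thresholds and 1.09% the adjusted p alone. The median log2FC of the 10 genes was -0.13, beside -0.03 over all genes. Sod3 had 5.67, 5.74, 4.84 and 3.75 FPKM in PQQ-H 1 to 4, all below the lowest CON library at 7.45. It was the single gene of the 10 without overlap, against 5.72% of all genes below CON and 1.36% above. Its log2FC was -0.82 (SE 0.201, 95% interval -1.26 to -0.38), with a limma adjusted p of 0.0988, the smallest of the 10 genes in any comparison.

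Prdx4 had 4.07, 5.75, 2.30 and 3.41 FPKM in PQQ-H. PQQ-H 2 lay within the CON range, and PQQ-H 3 was the lowest of the 12 libraries. The log2FC was -0.65 (SE 0.255, 95% interval -1.21 to -0.09), with a limma adjusted p of 0.422. Sod1 had 366, 410.5, 254 and 336 FPKM in PQQ-H, a spread of 342 ± 65.9 (SD, n = 4) as wide as that of CON (389 ± 66.4, n = 3), and its log2FC was -0.19. Prdx1 had 148, 157, 87.9 and 123 FPKM, and Prdx6 had 117, 149, 83.7 and 90.9. In both, PQQ-H 1 and PQQ-H 2 lay above PQQ-H 3 and PQQ-H 4. Their log2FC was -0.27 and -0.08. Sod2 (30.6 to 39.2 FPKM), Cat (19.3 to 22.5), Prdx2 (129 to 158), Prdx3 (40.5 to 56.1) and Prdx5 (163 to 200.5) overlapped CON, with a log2FC between -0.15 and 0.05.

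Between the doses, PQQ-H vs. PQQ-L, limma gave no unadjusted p below 0.05 for the 10 genes, where 4.6% of all genes tested were lower and 3.55% higher at that threshold. At an adjusted p of 0.05 the count over all genes was also 0, and the smallest adjusted p among the 10 was 0.580. None of the 10 genes was without overlap between the doses, against 3.33% of all genes lower and 1.42% higher. A log2FC above 0 was found for 8 genes, from 0.02 for Cat to 0.28 for Sod1 and Prdx6, and one below 0 for Sod2 (-0.11) and Sod3 (-0.18), where 54.3% of all genes were below 0. For Sod1 the 95% interval was -0.03 to 0.59, and for Sod3 it was -0.57 to 0.21. All 10 intervals lay within a 2-fold change in either direction, so a smaller difference between the doses was not excluded by these libraries.

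**Figure D3:**
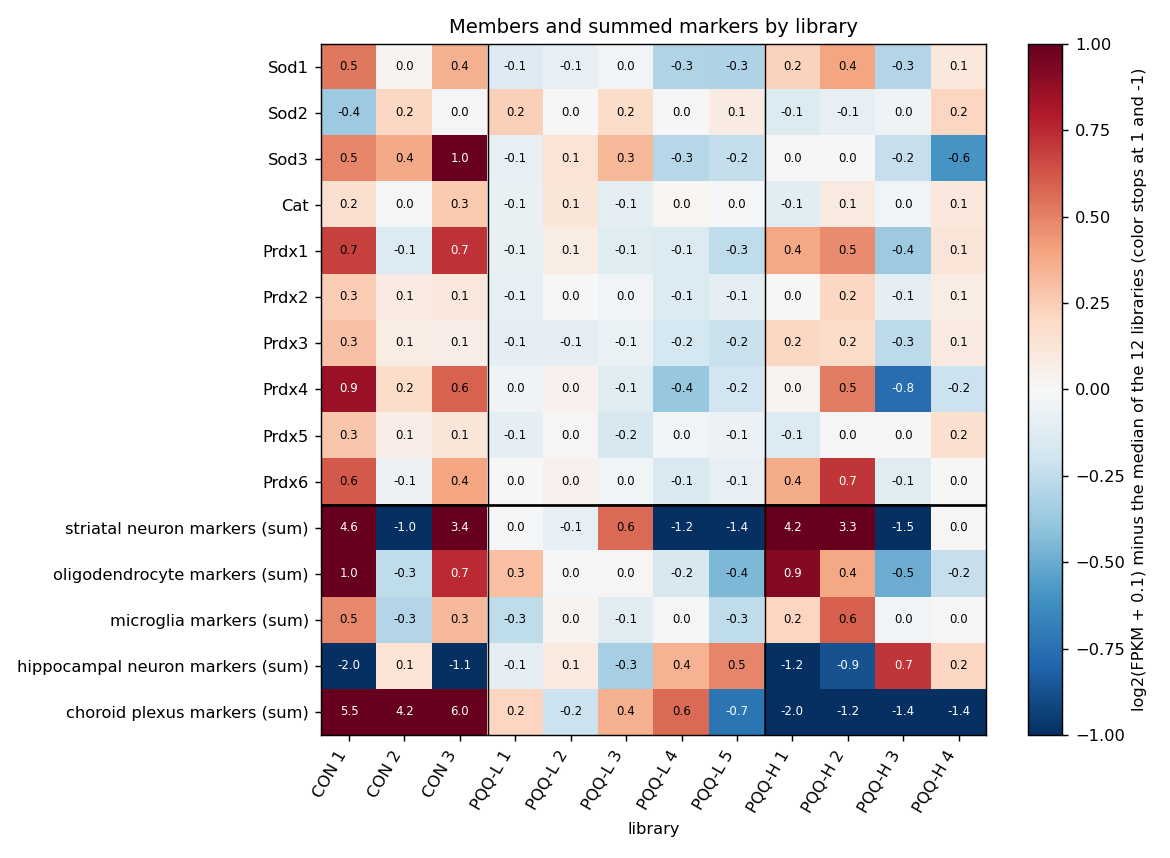
log2(FPKM + 0.1) of each gene, and of the summed markers of 5 cell types, minus the median of the 12 libraries (rows), by library (columns), with red above and blue below the median and colors stopping at 1 and -1. Sod1, Prdx1 and Prdx6 are highest in 2 CON libraries (1 and 3) and 2 PQQ-H libraries (1 and 2), the 4 with striatal marker sums of 1402 to 3497. Other libraries lie above the median by less, such as PQQ-H 4 for Sod1 (336 FPKM) and Prdx1 (123 FPKM).

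Levels of 3 genes differed between the 4 libraries that stood apart and the rest, whatever the group. Sod1 was 366 to 449.7 FPKM in the 4 and 252 to 336 in the other 8, Prdx1 was 148 to 186 against 87.9 to 123, and Prdx6 was 117 to 149 against 82.0 to 93.8. These 3 genes of 10 were higher without overlap in the 4 libraries, against 10.7% of all genes tested, and none was lower without overlap, against 14.3%. Striatal sums were without overlap by definition, since the 4 libraries were those with the highest. Oligodendrocyte, microglial and endothelial marker sums were higher in the 4 without overlap. Sums of hippocampal neuron markers and of markers of neurons in general (2204 to 2365 against 2590 to 2664) were lower without overlap. Astrocyte marker sums overlapped (889 to 1151 against 859 to 1048). Unlike Sod1, Prdx1 and Prdx6, Sod2 was lower in the 4 with a small overlap, at 26.1 to 33.2 FPKM in the 4 and 32.9 to 39.8 in the 8. The other 6 genes overlapped, some of them narrowly. Prdx3 was 50.7 to 59.5 FPKM in the 4 and 40.5 to 51.7 in the 8, and Prdx4 was 4.07 to 7.31 against 2.30 to 4.54. Prdx2 was 137 to 164 against 124 to 145, and Sod3 was 5.67 to 11.4 against 3.75 to 7.45. Cat (19.3 to 25.1 against 19.5 to 22.8) and Prdx5 (163 to 217 against 160.4 to 200.5) overlapped widely. None of the 5 PQQ-L libraries was among the 4, but 2 of 3 CON and 2 of 4 PQQ-H libraries were.

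Without these 4 libraries the fit held 1 CON, 5 PQQ-L and 2 PQQ-H libraries, the lone CON 2 being assumed to vary like the others. This alternative was added after the data were seen. In PQQ-L vs. CON the log2FC of Prdx1 was then 0.03, of Prdx6 0.02 and of Cat 0.01, while Sod1 was at -0.20, Sod3 at -0.41 and Prdx4 at -0.32. At an unadjusted p below 0.05 the count was 0. In PQQ-H vs. CON, Sod3 (log2FC -0.79) and Prdx4 (-0.68) were about as far below CON as with all libraries, at limma adjusted p of 0.397 and 0.424. Choroid plexus markers were 1552 FPKM in CON 2 too. Thalamic neuron markers were 141 FPKM in CON 2, 25.0 to 108 in PQQ-L, and 41.6 and 43.3 in PQQ-H 3 and PQQ-H 4. Choroid plexus, ependymal, meningeal and thalamic marker sums were all lower in PQQ-H 3 and PQQ-H 4 than in CON 2. The part of these markers' tissues in the Sod3 and Prdx4 values cannot be told apart from the treatment. With the mean log2 level of the choroid plexus markers as a covariate, Sod3 had a log2FC of 0.59 (PQQ-L) and 0.80 (PQQ-H). This covariate was also added after the data were seen. With it, 0 genes of all those tested passed an adjusted p of 0.05 in either comparison. The summed choroid plexus markers did not overlap between any of the groups, so this fit cannot separate them from the treatment. Its signs and counts therefore decide nothing about either.

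**Figure D4:**
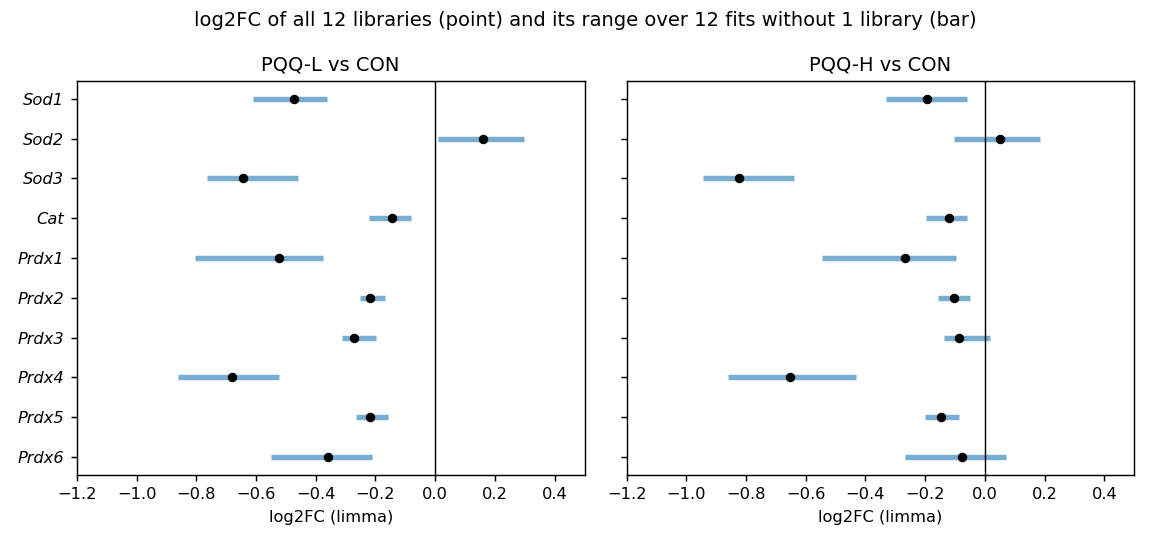
log2FC from limma with all 12 libraries (points) and its lowest to highest value over 12 fits that each left out 1 library (bars), for each dose against CON. In PQQ-L vs. CON 9 bars lie wholly below 0 and that of Sod2 wholly above it, and in PQQ-H vs. CON the bars of Sod2, Prdx3 and Prdx6 cross 0.

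In PQQ-L vs. CON, leaving out single libraries moved the tests and turned no direction. Without CON 2, the control with low striatal markers, the log2FC of PQQ-L vs. CON was -0.61 for Sod1, -0.76 for Sod3, -0.80 for Prdx1 and -0.86 for Prdx4, at limma adjusted p of 0.0324, 0.0361, 0.0280 and 0.0439. In that fit 3224 of all genes tested passed an adjusted p of 0.05, against 81 with CON 2. Without CON 1, Sod3 was the single gene with an unadjusted p below 0.05 in PQQ-L vs. CON. Sod3 was lower at an unadjusted p below 0.05 in all 12 such fits in both comparisons with CON, with a log2FC of -0.76 to -0.46 in PQQ-L and -0.94 to -0.64 in PQQ-H. The limma adjusted p of Sod3 ran from 0.0361 to 0.549 in PQQ-L and from 0.0795 to 0.353 in PQQ-H. These 12 fits share most of their libraries. Every CON library had summed choroid plexus markers of at least 1552 FPKM, and no PQQ library more than 124. Leaving out single libraries therefore cannot separate Sod3 from these markers.

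Library names in the labels begin with L or R, letters that the labels do not explain, and each group holds both. Within the L libraries 10 genes had a lower mean of log2 values in PQQ-L than in CON, and within the R libraries 9 did, with a single CON library there. For PQQ-H the counts were 9 and 9, the latter from 1 PQQ-H library against 1 CON library, with no replicate. Sod3 was lower by log2FC -0.95 (PQQ-L) and -0.76 (PQQ-H) within L, and -0.35 and -1.08 within R. Prdx4 gave -0.67 and -0.46 within L, and -0.90 and -1.08 within R.

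Genes around these enzymes were taken from 4 lists. In the copper list, 9 of 11 genes were tested, and Slc31a1, the copper importer Ctr1 that feeds Sod1 and Sod3, was the one gene of the 4 lists past an adjusted p of 0.05. It had 11.3, 9.29 and 15.9 FPKM in CON, 6.49, 5.19, 7.90, 5.77 and 5.46 in PQQ-L, and 4.80, 5.87, 4.91 and 3.99 in PQQ-H. Every PQQ library was below every CON library, with CON 3 highest, as for Sod3 and for the summed choroid plexus markers (3690, 1552 and 5459 in CON 1 to 3). The part of these markers' tissue in the Slc31a1 values cannot be told apart from the treatment. In PQQ-H the log2FC was -1.27 (SE 0.195), with a limma adjusted p of 0.00859, and it passed both thresholds. The call was lost with only the 2 groups compared (limma adjusted p 0.0811), with array weights (0.115) and with the replicate number as a block (0.0582). In PQQ-L it was -0.95 (SE 0.186), with a limma adjusted p of 0.05003. This adjusted p fell to 0.0375 with a pseudocount of 1, 0.0469 with quantile normalization and 0.0310 with voom on recovered reads. It rose to 0.0529 with no filter, 0.0637 with median-of-ratios scaling, 0.0883 with only the 2 groups and 0.0870 with the name letter. Array weights gave 0.380, the block 0.360 and the striatal marker score 0.195. Leaving out single libraries gave 0.0154 (without CON 2) to 0.212 (without CON 1). Without the 4 libraries of high striatal markers the PQQ-H value was -1.05, at an adjusted p of 0.274. With the choroid plexus covariate it was 0.80.

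Among the 8 copper genes tested besides Slc31a1, none passed an adjusted p of 0.05. At an unadjusted p below 0.05, 2 were lower in PQQ-L (median log2FC -0.25), against 11.6% of all genes, and 0 in PQQ-H (-0.02), against 7.88%. The 2 were Atox1, which carries copper to the secretory pathway (log2FC -0.53 in PQQ-L), and Ccs, the chaperone that loads copper into Sod1 (-0.24), which were named after their values were seen.

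In the thioredoxin list, all 15 genes were tested, 4 being lower and 1 higher at an unadjusted p below 0.05 in PQQ-L (median log2FC -0.15) and 3 lower in PQQ-H (-0.07). The shares over all genes were 11.6% (lower) and 8.92% (higher) for PQQ-L, and 7.88% (lower) for PQQ-H. Txn1, the thioredoxin that reduces peroxiredoxins, stood at log2FC -0.36 after the lower and -0.24 after the higher dose. Txnip, which binds and inhibits thioredoxin, was at -0.71 and -0.84, and the reductase Txnrd3 was at -0.58 in PQQ-H. Their smallest limma adjusted p was 0.123, for Txn1 in PQQ-L.

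Of 23 genes that produce superoxide or hydrogen peroxide, 15 were tested. Of these, 4 were lower at an unadjusted p below 0.05 in PQQ-L (median log2FC -0.31) and 3 in PQQ-H (-0.07), against 11.6% and 7.88% of all genes. In neither was one higher, against 8.92% and 1.85%. Maob, the outer-membrane monoamine oxidase, stood at log2FC -0.62 (PQQ-L) and -0.60 (PQQ-H), at limma adjusted p of 0.144 and 0.181. Xdh (xanthine oxidoreductase) was at -0.77 in PQQ-L and Aox1 (an aldehyde oxidase) at -0.53 in PQQ-H. All 22 peroxisome genes, which share the compartment of catalase, were tested. In PQQ-L 3 were lower at an unadjusted p below 0.05 (median log2FC -0.08), near the 11.6% of all genes, and in PQQ-H 0 (-0.06), against 7.88%. Pxmp2, a peroxisomal membrane channel, had the smallest adjusted p, 0.0872 in PQQ-L, with a log2FC of -0.69, and 0.577 in PQQ-H at -0.32. Pex16, of peroxisome membrane assembly, was at -0.24 in PQQ-L, and Pex14, of the import docking complex, at -0.10 in PQQ-H.

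The genes whose log2 levels followed the members most closely over the 12 libraries are given as a description, since the libraries share groups and tissue composition. For Sod1 they were Mif (Pearson r = 0.987), Ndufb10 (0.985) and Arl3 (0.982). For Sod3 they were Slc19a1 (0.965), St6galnac2 (0.960) and Slc16a9 (0.957), and for Prdx4 Gm2a (0.966), Cavin1 (0.959) and Eci1 (0.958). Prdx1 went most closely with Ddrgk1 (0.980), Psenen (0.978) and Adipor1 (0.976), and Prdx6 with Ly6a (0.985) and Rpl37rt (0.985). Sod2, which had its own order of libraries, went with Sacm1l (0.983), Hspa4l (0.978) and Tspyl4 (0.971).

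In GENCODE M21 on GRCm38, Sod1 lies at chr16:90220754-90226329, Sod3 at chr5:52363791-52371418, Prdx1 at chr4:116685544-116700822, all on the plus strand, and Prdx4 at chrX:155323918-155340754 on the minus strand. Exons of Prdx2 (chr8:84969587-84974834) overlap exons of Junb and Rnaseh2a on the opposite strand, and exons of Prdx5 (chr19:6906697-6910106) overlap Trmt112. Whether reads were counted by strand is not given in the sources used here, so reads of these pairs may be shared, and the Prdx2 and Prdx5 levels are uncertain to that extent.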

How the data were processed

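Gene expression was measured by RNA-seq in hippocampal RNA of 12 mice, which the labels place in 3 groups as separate samples. RNA was extracted with TRIzol, libraries were made with a VAHTS kit, and per the paper's methods reads were filtered with fastp, aligned with HISAT2 and counted with HTSeq-count. The submitters' processing notes name mm39, and the versions, annotation and strandedness are not given in the sources used here. The authors deposited FPKM values for 27833 genes, listed by symbol. Symbols were matched to GENCODE M21 and RefSeq (GRCm38), and no coordinate was converted.

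Ratios between libraries were used to recover integer counts of reads, by the smallest multiplier that made all values of a gene whole. Within 0.02 reads, 100.0% of the 25563 genes above 0 in at least 2 libraries gave whole reads. For genes above 0 in few libraries some multiplier is almost always found, and it can give a fraction of the true count. The share is therefore not a measure of how many counts are right. No replicate pair was a duplicate (chi-square per degree of freedom at least 18.8 over 19 pairs).

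Genes with a mean of at least 0.5 FPKM were tested with limma 3.58.1 (lmFit, eBayes with trend) in R 4.3.3 on log2(FPKM + 0.1), all 12 libraries in one fit, two-sided, with Benjamini-Hochberg adjustment over the 13796 genes. A gene was called at an adjusted p below 0.05 and |log2FC| above 1. Fold changes on this scale understate those of low genes. The fit was tested on simulated data. Other steps used Python 3.11.15 with pandas 2.3.3, numpy 2.4.6 and matplotlib 3.10.9. Alternatives were a pseudocount of 1, no filter, other scalings, only the groups compared, covariates, a block, array weights, voom on recovered reads and leaving out each library.

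The 10 genes, the 4 pathway lists and the marker lists were chosen with earlier results of these data known. Named besides the 10 genes are pathway genes past an adjusted p of 0.05 or, in a list with none, the 2 with the smallest p per comparison with CON, plus Atox1 and Ccs, named after their values were seen, and the genes most like Sod1, Sod2, Sod3, Prdx1, Prdx4 and Prdx6, up to 3 each. One gene is not reported here.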

Additional observations from a re-analysis of the deposited data

How the results depend on the processing

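None of the 10 genes passed both thresholds (adjusted p below 0.05 and |log2FC| above 1) under any of the 24 alternatives in any comparison. The number of genes at an unadjusted p below 0.05 was less stable. In PQQ-L vs. CON it was 7, but 4 with quantile normalization, 4 with array weights, 3 with the striatal marker score as a covariate, 0 with the choroid plexus score and 0 without the 4 libraries of high striatal markers, and 1 (without CON 1) to 10 (without CON 2) when single libraries were left out. Of the 10 without CON 2, 9 were lower and 1, Sod2, was higher. In PQQ-H vs. CON the number was 2, but 1 with only the 2 groups compared and 0 with the choroid plexus score. It was 1 to 4 (4 without CON 2) without single libraries. In PQQ-H vs. PQQ-L it was 0, but 2 with median-of-ratios scaling, 2 with the name letter as a covariate, 2 with array weights and 0 to 5 without single libraries (5 without PQQ-H 3). The share of all genes at that threshold moved too. In PQQ-L vs. CON it was 20.5%, but 43.1% without CON 2, 6.36% without CON 1, 4.57% without the 4 libraries and 2.32% with the choroid plexus score. In PQQ-H vs. CON it was 9.73%, but 20.1% without CON 2, and in PQQ-H vs. PQQ-L 8.15%, but 13.7% without PQQ-H 3. The cause was not tested. Of 360 log2FC values, 24 changed sign over 12 settings and 11 of another 360 over the 12 fits without 1 library.

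With the choroid plexus score, the signs turned in PQQ-L vs. CON for Sod3 (0.59), Cat (0.0096) and Prdx1 (0.16). In PQQ-H vs. CON they turned for Sod1 (0.30), Sod3 (0.80), Cat (0.081), Prdx1 (0.63), Prdx6 (0.31) and Slc31a1 (0.80), and in PQQ-H vs. PQQ-L for Sod3 (0.21). The sums of these markers did not overlap between any of the groups, so the score cannot be separated from the treatment and these signs decide nothing. Without the 4 libraries they turned in PQQ-L vs. CON for Sod2 (-0.11), Cat (0.0080), Prdx1 (0.032) and Prdx6 (0.018), in PQQ-H vs. CON for Sod2 (-0.12), Cat (0.057), Prdx1 (0.013) and Prdx5 (0.025), and in PQQ-H vs. PQQ-L for Prdx1 (-0.018), Prdx4 (-0.35) and Prdx6 (-0.018). With the striatal score they turned for Prdx6 in PQQ-H vs. CON (0.029) and Prdx4 in PQQ-H vs. PQQ-L (-0.23), with array weights for Prdx4 (-0.033) and with quantile normalization for Prdx5 (-0.0068), both in PQQ-H vs. PQQ-L. Without single libraries, the log2FC ran in PQQ-H vs. CON from -0.10 to 0.18 for Sod2, -0.14 to 0.018 for Prdx3 and -0.27 to 0.072 for Prdx6, and in PQQ-H vs. PQQ-L from -0.0077 to 0.066 for Cat and -0.18 to 0.25 for Prdx4. With the striatal score Sod3 passed the adjusted p in PQQ-H vs. CON (log2FC -0.75, limma adjusted p 0.0451). The Slc31a1 call in PQQ-H vs. CON held in all 12 fits without 1 library.

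Scaling also moved the balance of all genes. Of the genes at an unadjusted p below 0.05, 56.6% were lower in PQQ-L vs. CON, against 43.7% with median-of-ratios scaling and 39.2% with quantile normalization, and 81.0%, 59.2% and 55.2% were lower in PQQ-H vs. CON, while 9 of the 10 genes stayed below CON under each. In PQQ-H vs. PQQ-L the shares were 56.4%, 39.9% and 46.7%.

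The labels do not say whether replicate numbers pair the mice. Of 10 same-numbered pairs 4 had correlated deviations over 0.1, in a range of -0.62 to 0.72. The highest was that of CON 1 and PQQ-H 1, both with high striatal markers. The lowest was that of CON 2 and PQQ-H 2, of which only PQQ-H 2 had them. These correlations therefore cannot decide whether the mice were paired. With the number as a replicate block, the count at an unadjusted p below 0.05 was 2 in PQQ-L vs. CON, 1 in PQQ-H vs. CON and 0 in PQQ-H vs. PQQ-L, and Slc31a1 lost its call in PQQ-H vs. CON (limma adjusted p 0.0582). With 3 control libraries, the printed 95% intervals give the precision of each log2FC if all groups share the same spread. The SD of Sod1, for example, was 66.4 FPKM in CON and 24.2 in PQQ-L. The intervals take no account of tissue markers that differ between libraries.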
